A study of Rattus norvegicus with 20 samples.

Results

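Interferon response genes were followed in small vessels dissected from rat kidneys, over 2 diets and 2 genotypes. The set was a list of 9 gene names, chosen with earlier results of these data known. These were the transcription factors Irf1 and Irf7, guanylate-binding proteins Gbp2 and Gbp5, antiviral effectors Oasl, Mx1, Ifit2 and Ifit3, and the ubiquitin-like modifier Isg15. Of these, 8 had 1 row each in the table of 16672 genes, and Isg15 was not analysed here. All 8 passed the filter on low values, with 126 to 5766 recovered reads per library.

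The animals were male Dahl salt-sensitive (SS) rats, an inbred strain that becomes hypertensive on a salty diet. All 4 groups share that background. One pair of groups was wild type for the chemokine Ccl2 (CCl2+/+) and the other was labelled CCl2-/-, called null below. Within each genotype, 5 rats ate 0.3% NaCl (low salt) and 5 ate 4.0% NaCl (high salt) for 2 weeks, which gave 20 libraries of poly A-selected RNA, 1 per rat. The labels state neither the age of the rats nor the kind of null allele, and nothing in the labels says which rats shared a litter or a day.

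Interferons are secreted proteins that alert cells to viruses. Type I and type III interferons act through the kinases Jak1 and Tyk2 on a complex that includes Stat2 and Irf9 and binds the interferon-stimulated response element (ISRE) of genes such as Mx1, Oasl and the Ifit family. Type II interferon, made by T and NK cells, acts at gamma-activated sites (GAS), with Irf1 and the guanylate-binding proteins among its classical targets. Irf7 is itself induced and drives a second round of type I interferon production. In the kidney such genes are expressed by leukocytes, endothelium and tubule cells alike.

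The promoters of 7 members were found by symbol in RefSeq's table for the assembly GRCr8, with 300 bases each from 250 before to 50 after the annotated start. They are shown for the 3 members whose transcript passed a test (Gbp2, Gbp5 and Oasl) and for Irf1, whose salt difference in SS rats had the other sign. Capitals mark a match to the ISRE core, written as GAAA, any 2 bases and GAAA, or to the GAS motif, written as TTC, any 3 bases and GAA, on either strand.
Gbp2 (chr2:234005477-234005776, plus strand): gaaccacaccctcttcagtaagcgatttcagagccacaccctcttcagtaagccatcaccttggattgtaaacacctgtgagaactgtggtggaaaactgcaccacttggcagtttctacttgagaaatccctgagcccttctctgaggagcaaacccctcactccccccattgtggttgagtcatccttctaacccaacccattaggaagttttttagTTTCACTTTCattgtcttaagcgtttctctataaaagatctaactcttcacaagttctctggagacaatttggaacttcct
Gbp5 (chr2:233910749-233911048, plus strand): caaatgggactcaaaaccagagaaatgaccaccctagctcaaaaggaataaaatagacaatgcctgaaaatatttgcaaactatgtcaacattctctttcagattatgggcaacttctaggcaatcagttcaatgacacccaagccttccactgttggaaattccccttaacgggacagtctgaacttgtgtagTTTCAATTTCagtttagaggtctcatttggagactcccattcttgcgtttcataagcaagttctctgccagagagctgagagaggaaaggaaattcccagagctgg
Oasl (chr12:47356243-47356542, minus strand): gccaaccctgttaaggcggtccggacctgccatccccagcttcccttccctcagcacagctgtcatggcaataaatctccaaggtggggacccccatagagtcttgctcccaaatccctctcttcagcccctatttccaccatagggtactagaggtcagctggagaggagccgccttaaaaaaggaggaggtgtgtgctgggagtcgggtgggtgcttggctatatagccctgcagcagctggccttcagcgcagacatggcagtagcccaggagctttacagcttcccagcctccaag
Irf1 (chr10:38417685-38417984, plus strand): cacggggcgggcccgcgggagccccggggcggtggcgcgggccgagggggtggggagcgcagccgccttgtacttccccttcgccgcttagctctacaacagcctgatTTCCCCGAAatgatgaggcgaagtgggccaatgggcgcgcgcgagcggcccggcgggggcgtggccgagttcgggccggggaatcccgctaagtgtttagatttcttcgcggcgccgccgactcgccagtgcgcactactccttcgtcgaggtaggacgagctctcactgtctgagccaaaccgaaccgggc

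The ISRE core occurred in the promoters of Gbp2 (TTTCACTTTC), Gbp5 (TTTCAATTTC), Irf7 (TTTCATTTTC) and Ifit3 (TTTCAGTTTC), so in 4 of 7. It occurred in 3.92% of all 33469 promoters of the same length. The GAS motif occurred in 1 of the 7, that of Irf1 (TTCCCCGAA), and in 8.87% of all promoters. The windows of Oasl and Mx1 held neither string of letters, and no promoter was found by symbol for Ifit2. In the same annotation Gbp2 lies between Gbp4 and Gbp1, Gbp5 beside Gbp7, Oasl beside Oasl2, and Ifit2 beside Ifit3. The treatment of reads that fit more than 1 copy of such families is not stated, so the reads of these members are uncertain between copies.

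The libraries held 22.04 to 47.85 M recovered reads. Markers of endothelium (10 of 10) and smooth muscle (8 of 8) were present in every library, as were those of proximal tubule (10 of 10), so tubule transcripts were read beside those of vessels. Transcripts encoded by the mitochondrial genome took 22.6% to 42.6% of reads in the low-salt SS group and 6.90% to 20.4% in the high-salt one. The null groups had 14.2% to 29.5% and 9.77% to 16.5%. High-salt SS rat 1 was the most distant library on the second principal component (15.1% of variance), and rat 4 of the null low-salt group on the third (8.14%). Ccl2, the targeted gene, was still read in every null library, at 124 to 218 normalized counts on low salt against 138 to 212 in SS rats (log2 difference -0.12 ± 0.22, limma adjusted p = 0.808). On high salt it lay at 77.5 to 128 in null rats and 167 to 426 in SS rats (-1.46 ± 0.22, limma adjusted p = 4.73e-04). The level of a transcript does not show whether its protein is made, so genotype rests on the labels.

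The transcripts of the guanylate-binding proteins Gbp2 and Gbp5 were lower on high salt in both genotypes, and that of Oasl was lower in null rats. Other genes of the Gbp family were counted only within the list of interferon gamma targets below. In SS rats Gbp5 and Gbp2 fell to 0.649-fold and 0.763-fold of their low-salt level. In null rats they fell to 0.698-fold and 0.719-fold, and Oasl fell to 0.534-fold. The other 5 members did not pass with limma in either genotype, while in null rats Mx1 passed with edgeR and DESeq2, and Irf7 with DESeq2, on the recovered reads. Every fold is on the log2(value + 1) scale and relative to the authors' scaling of the libraries.

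**Figure D1:**
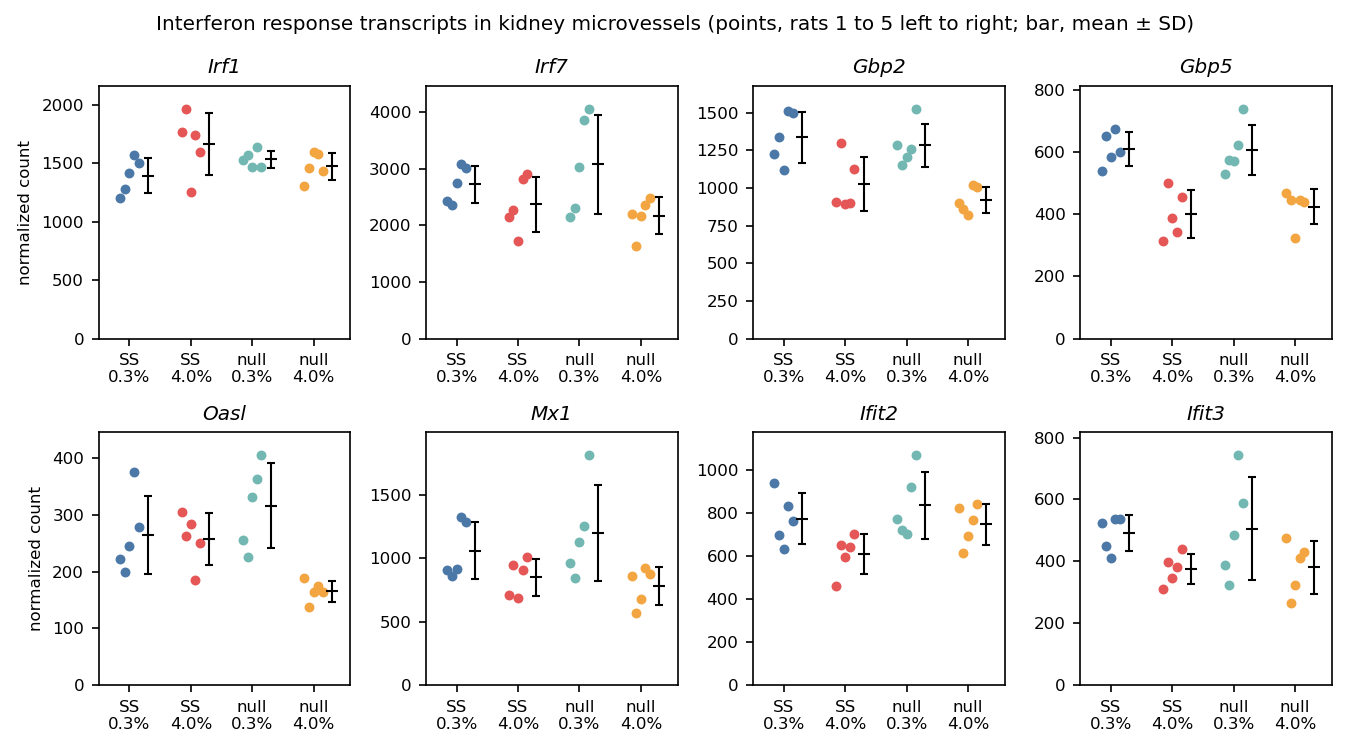
Normalized counts (vertical axes, starting at 0) of the 8 members in each rat, by genotype and dietary NaCl, with the mean ± SD of each group of 5. Gbp5 on high salt lies below every low-salt rat in both genotypes, and Oasl in null rats on high salt, at 138 to 188, lies below every null rat on low salt.

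Gbp5, a large GTPase known in mice for its part in inflammasome assembly, had the smallest p of the set in SS rats. On low salt its normalized counts in SS rats 1 to 5 were 537, 652, 584, 675 and 600.0, and on high salt 314, 501, 387, 342 and 456. The groups did not overlap: the highest high-salt rat lay below the lowest low-salt rat. The change was -0.62 ± 0.13 on the log2 scale (limma adjusted p = 0.00189, lower in 5 of 5 rats than any on low salt). In null rats 1 to 5 the counts were 530.1, 574, 571, 621 and 738 on low salt and 467, 444, 323, 446 and 438 on high salt. Again no value overlapped, with a change of -0.52 ± 0.13 (limma adjusted p = 0.0198). Without rat 5 of the null low-salt group the adjusted p was 0.059, and without rat 3 of the null high-salt group 0.0587. Ordered by mean, the groups were SS low salt (610 ± 55.2, SD, n = 5), null low salt (607 ± 80.1), null high salt (424 ± 57.2) and SS high salt (400 ± 77.7), and the neighbours on the same diet did not pass when compared.

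Gbp2, another interferon-inducible GTPase of the family, which in mice gathers on vacuoles that hold pathogens, moved less. In SS rats 1 to 5 it was at 1228, 1337, 1119, 1511 and 1497 normalized counts on low salt and at 911, 1299.6, 897, 898 and 1127 on high salt. High-salt rats 2 and 5 reached into the low-salt range while the other 3 lay below it. The change of -0.39 ± 0.11 passed (limma adjusted p = 0.0177), and without rat 3 of the SS high-salt group it was -0.35 (limma adjusted p = 0.0512). In null rats 1 to 5 the counts were 1286, 1152, 1205, 1258 and 1526 on low salt and 899, 864, 822, 1021 and 1005 on high salt. Here every high-salt rat lay below every low-salt rat, and the change was -0.48 ± 0.11 (limma adjusted p = 0.016). The order of group means was SS low salt (1338 ± 169, SD, n = 5), null low salt (1285 ± 144), SS high salt (1026 ± 181) and null high salt (922 ± 87.6). As with Gbp5, neither comparison of genotypes on the same diet passed.

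Oasl, a protein related to the 2',5'-oligoadenylate synthetases that in humans enhances sensing of viral RNA, passed the test for salt in null rats and did not in SS rats. In SS rats 1 to 5 it was at 222, 200.02, 246, 377 and 279 normalized counts on low salt and at 305, 264, 285, 185 and 249.8 on high salt. The SS groups overlapped over most of their range, and the difference was -0.02 ± 0.18 (limma adjusted p = 0.945, 95% interval -0.39 to 0.34). In null rats 1 to 5 it was at 256, 225, 332, 364 and 405 on low salt and at 188, 138, 163, 174 and 163 on high salt. No value overlapped, and the fall was -0.91 ± 0.18 (limma adjusted p = 0.0058), between -1.02 and -0.81 when any single rat was left out. On high salt Oasl was lower in null than in SS rats, at 165 ± 18.6 against 258 ± 45.7 (SD, n = 5 each), a difference of -0.62 ± 0.18 (limma adjusted p = 0.0307). In that comparison SS rat 4, at 185, lay inside the null range, and the other 4 SS rats lay above it. The call on high salt was lost on leaving out any of SS rats 1 to 3 or null rats 2 to 5, with adjusted p between 0.0542 and 0.09, at changes of -0.56 to -0.64, and without the pair of libraries that lay apart on the principal components (limma adjusted p = 0.0784).

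The salt effect on Oasl differed between genotypes by -0.88 ± 0.25 (null minus SS, 95% interval -1.40 to -0.37), which missed the threshold (limma adjusted p = 0.0582). It passed with DESeq2 on the recovered reads (adjusted p = 0.0165) and on leaving out SS low-salt rat 4 (0.0263), SS high-salt rat 4 (0.0239) or null low-salt rat 2 (0.0391). Without the pair of libraries that lay apart on the principal components it was -0.76 (limma adjusted p = 0.159).

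Mx1, a dynamin-like GTPase that blocks virus replication and serves as a standard readout of type I interferon, gave lower means on high salt in both genotypes without passing. In SS rats it spanned 857 to 1325 normalized counts on low salt (median 919) and 686 to 1011 on high salt (median 905), and the difference was -0.31 ± 0.18 (limma adjusted p = 0.258). In null rats 1 to 5 it was at 965, 842, 1126, 1255 and 1813 on low salt and at 859.7, 567, 680.1, 922 and 876 on high salt. The null groups overlapped through low-salt rat 2, and the difference of -0.59 ± 0.18 narrowly missed the threshold (limma adjusted p = 0.0552). On the recovered reads it passed with edgeR (adjusted p = 0.0455) and DESeq2 (0.0157). It also passed without null low-salt rat 2 (limma adjusted p = 0.0354) or SS high-salt rat 1 (0.0401), and with no other single rat left out. Over all such omissions the difference ran from -0.71 to -0.43.

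The Ifit proteins bind foreign RNA or the translation machinery. Ifit3 in SS rats 1 to 5 was at 525, 449, 412, 536 and 538 normalized counts on low salt and at 312, 399, 345, 381 and 438 on high salt. Only the highest high-salt rat reached into the low-salt range, yet the difference of -0.39 ± 0.18 did not pass (limma adjusted p = 0.141). In null rats Ifit3 spread widely on low salt, from 323 to 742, and lay at 265 to 474 on high salt (-0.38 ± 0.18, limma adjusted p = 0.217). Ifit2 spanned 633 to 939.5 on low salt and 459 to 702 on high salt in SS rats (-0.34 ± 0.13, limma adjusted p = 0.0778). It passed without SS low-salt rat 3 (-0.41, limma adjusted p = 0.0475) and with no other single rat left out. Without SS low-salt rat 1 it was at -0.27 (limma adjusted p = 0.195), and without SS high-salt rat 1 at -0.24 (0.187). In null rats it spanned 702 to 1068 and 614 to 841 (-0.15 ± 0.13, limma adjusted p = 0.522).

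Among the transcription factors, Irf7 followed the effectors in the sign of the salt difference in both genotypes, and Irf1 in null rats only. Irf7, the amplifier of type I interferon production, spanned 2359 to 3082 normalized counts on low salt and 1730.5 to 2903 on high salt in SS rats (-0.22 ± 0.17, limma adjusted p = 0.395). In null rats 1 to 5 it was at 2155, 2305, 3027, 3870.2 and 4061 on low salt and at 2209, 1628, 2175, 2365 and 2490.0 on high salt. Low-salt rats 3 to 5 lay above every high-salt rat and rats 1 and 2 did not, and the difference of -0.47 ± 0.17 did not pass (limma adjusted p = 0.0889). Without null low-salt rat 1 it was at -0.59 and passed (limma adjusted p = 0.0439), and without rat 5 of that group it was at -0.36 (limma adjusted p = 0.216). No other omission of a single rat brought Irf7 past the threshold. Irf1, which activates MHC and other interferon gamma targets, was at 1205, 1276, 1414, 1573 and 1499 in SS rats 1 to 5 on low salt and at 1763, 1964, 1250.1, 1738 and 1598 on high salt. High-salt rat 3 lay inside the low-salt range and the other 4 lay above it. Irf1 was the single member with a value above 0 for salt in SS rats, 0.25 ± 0.10, and did not pass (limma adjusted p = 0.0873). It passed without that rat 3, at 0.34 (limma adjusted p = 0.0102), and with no other single rat left out. Rat 3 was the lowest of its group, so leaving it out raises the difference by construction and is no separate support. Over all omissions of a single rat the difference ran from 0.18 to 0.34. In null rats Irf1 spanned 1464 to 1634 on low salt and 1303 to 1592 on high salt (-0.06 ± 0.10, limma adjusted p = 0.76).

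**Figure D2:**
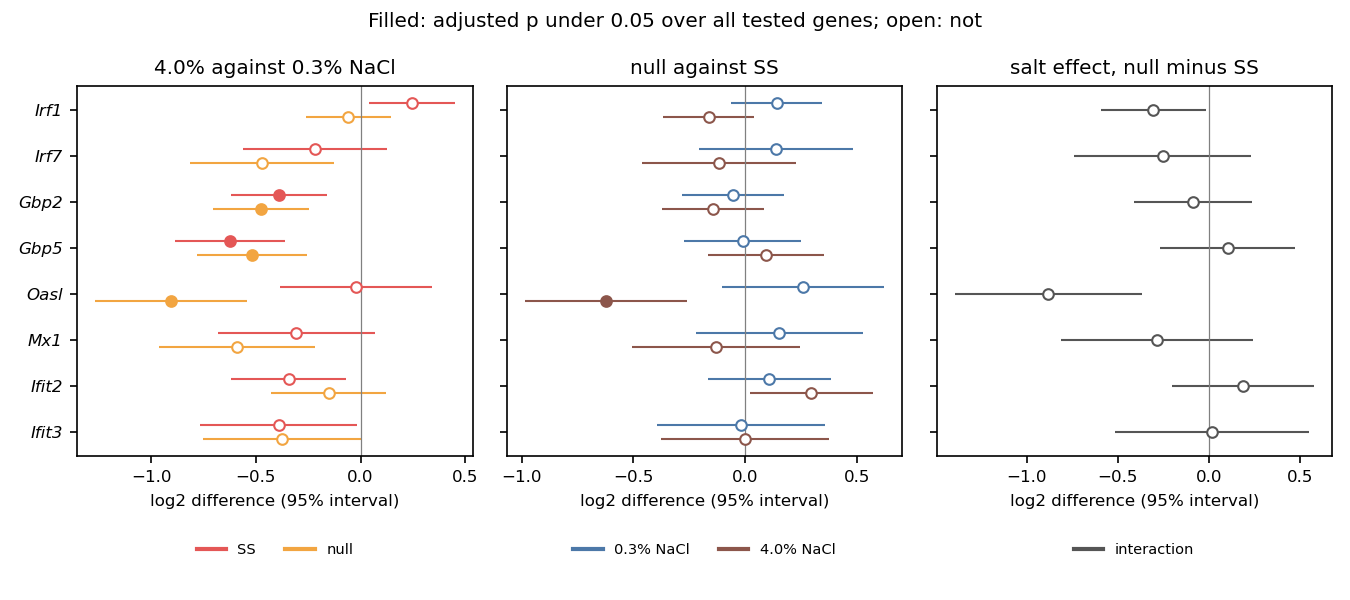
Log2 differences (horizontal axes, points with 95% intervals from limma) of the 8 members for high against low salt, null against SS, and the difference between the salt effects. Filled points passed an adjusted p of 0.05 over all tested genes: Gbp2 and Gbp5 for salt in both genotypes, and Oasl for salt in null rats and for genotype on high salt.

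Counted over the set, 2 of 8 members were called lower with salt in SS rats, where 7.73% of all 16153 tested genes were. In null rats 3 of 8 were, where 2.45% of all genes were. The members were chosen with earlier results of these data known, and the shares were not tested against each other. The members' median change was -0.32 in SS rats and -0.47 in null rats, beside 0.00 for all tested genes in both, and 7 and 8 of the 8 were below 0. Values that did not overlap between diets, all lower on high salt, were found for 1 member in SS rats (4.3% of tested genes) and for 3 in null rats (5.18%). In the exact permutation test over 5 against 5 rats (two-sided), those 4 results had p = 0.00794, the smallest that the 252 divisions allow. Groups without overlap reach that p by construction. Adjusted over the 32 tests of members and comparisons it was 0.0635. Gbp2 with salt in SS rats had exact permutation p = 0.0397 (adjusted 0.159), and Oasl between genotypes on high salt 0.0159 (adjusted 0.0847). No result passed the exact permutation test once adjusted. Between genotypes on low salt 0 of 8 members passed with limma, edgeR or DESeq2, where limma called 0.557% of all genes. At an unadjusted limma p under 0.05 there were 0 of 8 members, beside 18% of all genes. Differences there ran from -0.06 ± 0.11 for Gbp2 to 0.26 ± 0.18 for Oasl. On high salt 1 of 8, Oasl, was called lower, where 4.82% of all genes were. The next smallest p there was that of Ifit2, whose difference of 0.30 ± 0.13 was in the other direction and did not pass (limma adjusted p = 0.155). For the difference between the salt effects 0 of 8 passed with limma and with edgeR and 1 with DESeq2, where limma called 2.53% of all genes. At an unadjusted limma p under 0.05 there were 2 of 8, Oasl and Irf1 (-0.30 ± 0.14), beside 18% of all genes. For Gbp2 and Gbp5 that difference was -0.09 and 0.10, with 95% intervals of -0.41 to 0.24 and -0.27 to 0.47.

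Some of these calls and signs changed with the scaling of the libraries. Scaling each library to its total put the median of all genes at 0.38 for salt in SS rats and at 0.12 in null rats, from 0.00 in both. Under total scaling Gbp5 was at -0.23 ± 0.13 (limma adjusted p = 0.131) and Gbp2 at -0.00 ± 0.12 (0.996) in SS rats, while Irf1 passed as higher, at 0.63 ± 0.14 (8.23e-04). In null rats Oasl still passed under that scaling (-0.78 ± 0.20, limma adjusted p = 0.0216), and Gbp2 (0.0831) and Gbp5 (0.0695) did not. Taken relative to the shifted median, Gbp5 was at -0.62 in SS rats, Gbp2 at -0.38 and Irf1 at 0.25. A scaling factor moves all genes of a library alike, so these values return to those of the deposited scaling by construction. They are no separate support for the calls. With the mitochondrial genes left out of the total, Gbp5 in SS rats was at -0.55 ± 0.14 (limma adjusted p = 0.00737), Gbp2 at -0.32 ± 0.12 (0.0693) and Irf1 at 0.32 ± 0.10 (0.0331).

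**Figure D3:**
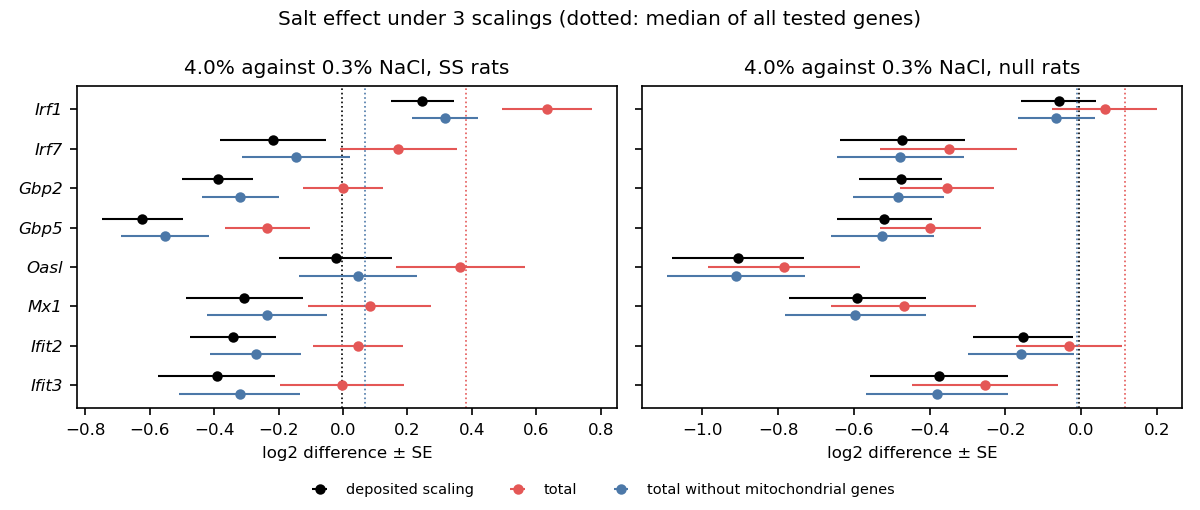
Log2 salt effect ± SE (horizontal axes) of each member in SS rats (left) and null rats (right) under the deposited scaling, total scaling, and total scaling without mitochondrially encoded genes, with dotted lines at the median of all tested genes. In SS rats total scaling places every member higher, with the median of all genes at 0.38.

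Within groups 13 of the 21 pairs of members without Irf1 were correlated from rat to rat by Pearson's r, and 0 of the 7 pairs with Irf1. After each group's mean was subtracted, 13 of 28 pairs had a Pearson r with an adjusted p under 0.05 over the 20 libraries (permutation within groups, adjusted over 28 pairs). By Spearman's rho, Oasl with Mx1 (permutation adjusted p = 0.0614) or Ifit3 (0.0663), Gbp2 with Ifit2 (0.0528) and Gbp5 with Mx1 (0.0528) did not pass. Gbp5 with Ifit3 passed by rho alone (0.0347). The share among pairs of other genes was not computed. The closest pair was Irf7 and Mx1, at r = 0.86 and Spearman's rho = 0.85 (permutation p = 1e-05, the smallest that these permutations can give, and 4e-05; adjusted 2.80e-04 and 7.00e-04), and r = 0.87 without the 2 libraries farthest out. Mx1 and Ifit3 followed at r = 0.79 and rho = 0.81 (permutation p = 5.6e-04 and 8e-05; adjusted 0.00369 and 7.47e-04), and r = 0.70 without the 2 farthest. Gbp2 and Gbp5 gave r = 0.76 and rho = 0.75 (permutation p = 7.9e-04 and 8.9e-04; adjusted 0.00369 and 0.00498), and r = 0.62 without the 2 farthest. The 21 pairs without Irf1 had r between 0.28 and 0.86. The 7 pairs with Irf1 had r between -0.12 and 0.36, and 0 of them passed, also at an unadjusted permutation p. Points of a library share its depth and its scaling factor, and the part of these in the correlations was not tested.

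**Figure D4:**
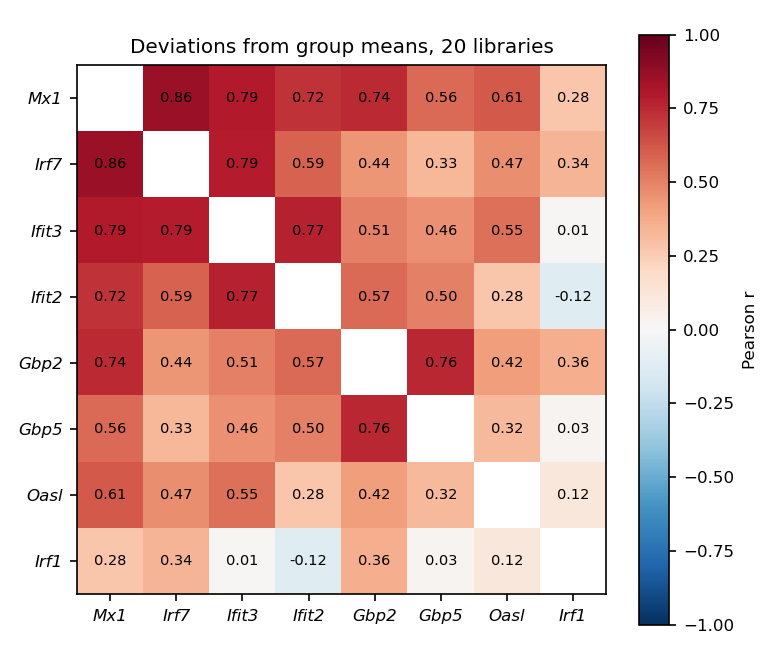
Pearson r between members over 20 libraries after subtraction of group means (colour and number in each cell). The 6 pairs among Mx1, Irf7, Ifit3 and Ifit2 lie at 0.59 to 0.86, Gbp2 and Gbp5 at 0.76, and the 7 pairs with Irf1 at -0.12 to 0.36.

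The rats that carried high levels were the same for most members. In SS rats on low salt, rat 4 was above its group's mean for 8 of 8 members and rat 5 for 6. On high salt SS rat 2 was above for 7 and rat 5 for 6. Null low-salt rats 4 and 5 were each above for 7 of 8, while rats 1 and 2 were above for 1. Null high-salt rat 4 was above for 8, and rat 2 for 1. The share of all genes above the group mean in these libraries was not computed, so a shift of the whole library cannot be told apart. Among 12818 named genes outside the set with a mean of at least 50, those whose deviations were most like the members' mean were Mx2 (r = 0.87, rho = 0.87), Zbp1 (0.85 and 0.79), Usp18 (0.85 and 0.85), LOC120097562 (0.83 and 0.80) and Eif2ak2 (0.83 and 0.79), over 20 libraries. Mx1 alone was most like Usp18, Mx2 and Zbp1 (r = 0.89, 0.87 and 0.86, and rho = 0.87, 0.80 and 0.86). Gbp2 was most like Rnf213, Stat2 and Samd9l (r = 0.85, 0.82 and 0.81, and rho = 0.82, 0.85 and 0.82). They were chosen as the highest of all genes, so no test was made.

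The wider pathway was counted from lists that, like the members, were chosen with earlier results of these data known. Their shares were not tested against those of all genes. Of 144 listed names of interferon receptors, signal transducers, sensors, other IRF factors and other targets, 119 were in the table and 117 were tested. With salt in SS rats 22 of the 117 (18.8%) were called higher, where 9.52% of all genes were. There 2 (1.71%) were called lower, where 7.73% of all genes were. The median over the list was 0.05. In null rats 10 (8.55%) were called lower, where 2.45% of all genes were, and 1 higher, where 3.06% were, with a median of -0.09. On high salt 17 (14.5%) were lower in null than in SS rats, beside 4.82% of all genes, and 1 was higher, beside 3.7%. In the difference between salt effects 11 (9.4%) were called, all lower, where 1.76% of all genes were. On low salt 1 (0.855%) was higher in null than in SS rats, beside 0.452% of all genes, and 0 were lower, beside 0.105%. The median of the list there was 0.11, beside -0.002 for all tested genes. Of the 117, 91 were above 0 on low salt, beside 8012 of all 16153.

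With salt in SS rats, 3 of 5 genes (60%) from the list of interferons and receptors were called higher, beside 9.52% of all genes. Of 10 signal transducers 3 (30%) were, with a median of 0.02 over the 10. In both lists 0 were called lower, beside 7.73% of all genes. Among those that rose were Ifngr1, a chain of the gamma receptor (0.55 ± 0.11, limma adjusted p = 0.00209), Ifnlr1, a chain of the type III receptor (0.75 ± 0.15, 0.00186), and Tyk2 (0.36 ± 0.08, 0.00308). Stat2, the partner in the ISRE-binding complex, was at -0.14 ± 0.09 in SS rats and -0.15 ± 0.09 in null rats and did not pass in either (0.286 and 0.315). Its partner Irf9 did not pass the filter on low values, and Ifng was not analysed here. The feedback inhibitors Socs3 (1.47 ± 0.22, limma adjusted p = 1.46e-04) and Socs1 (0.91 ± 0.24, 0.0107) rose in SS rats. The mean of Socs3 went from 382 to 1154 normalized counts in SS rats and from 459 to 391 in null rats, and its salt effects differed by -1.70 ± 0.31 (limma adjusted p = 0.00811).

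Of 14 sensors and adaptors, 3 (21.4%) were called higher and 1 (7.14%) lower in SS rats, beside 9.52% and 7.73% of all genes. Their median was -0.02. Among them Sting1, the adaptor for cytosolic DNA (0.66 ± 0.13, limma adjusted p = 0.00169), and Ikbke, a kinase that activates IRF factors (0.65 ± 0.11, 3.18e-04), rose in SS rats, and Mavs, the adaptor of RNA sensing, fell there (-0.25 ± 0.08, 0.0278). The RNA sensor Dhx58 fell in null rats (-0.58 ± 0.13, 0.0157). Irf8 (0.61 ± 0.14, 0.00529) and Irf3 (0.49 ± 0.11, 0.00331) rose in SS rats among the other IRF factors. They were 2 of 6 (33.3%), and 0 of the 6 were called lower, beside 9.52% and 7.73% of all genes. Of 54 other type I targets, 5 (9.26%) were called higher in SS rats, a share near the 9.52% of all genes, with Slfn13 at 0.88 ± 0.14 (limma adjusted p = 2.15e-04). There 0 of the 54 were called lower, beside 7.73% of all genes, and their median was 0.01. In null rats 4 (7.41%) were called lower, beside 2.45% of all genes, with Ifi35 at -0.41 ± 0.08 (0.00552), and 1 (1.85%) higher, beside 3.06%. Of 28 targets known to respond to interferon gamma, 6 (21.4%) were called higher and 1 (3.57%) lower in SS rats, beside 9.52% and 7.73% of all genes. The peptide transporter Tap2 (0.67 ± 0.10, 1.78e-04) and the MHC class II regulator Ciita (0.74 ± 0.12, 2.73e-04) were among those that rose there. In null rats 4 (14.3%) were called lower, beside 2.45% of all genes, among them the immunoproteasome subunit Psmb9 (-0.54 ± 0.10, limma adjusted p = 0.00386), which did not pass in SS rats, where its mean went from 956 to 983. The salt effects on Tap2 (-0.77 ± 0.14, 0.00907), Ciita (-0.68 ± 0.17, 0.034) and Psmb9 (-0.58 ± 0.14, 0.0262) differed between genotypes.

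T and NK cell markers were higher on high salt in SS rats, where Gbp2 and Gbp5 were lower. The summed normalized count of 16 of 18 T and NK cell markers lay at 1105 to 1886 on low salt and 2174 to 3173 on high salt in SS rats, and at 1678 to 2015 and 1746 to 2221 in null rats. Of the 16, 13 were called higher with salt in SS rats and 1 in null rats, where 9.52% and 3.06% of all genes were. The summed count of 15 of 16 macrophage and monocyte markers spanned 17123.5 to 29347 on low salt and 29643 to 40532 on high salt in SS rats. In null rats it spanned 22456 to 31097 on low salt and 27547 to 34917 on high salt. Of the 15, 8 were called higher with salt in SS rats and 0 in null rats with limma, against the same shares of all genes. Fibroblast markers (8 of 8) were also higher in SS rats, with a summed count of 13682 to 20977.5 on low salt and 27932 to 44380 on high salt. Of these, 7 of 8 were called higher, where 9.52% of all genes were. In null rats the sum of the fibroblast markers spanned 23498.5 to 30681 and 28988 to 41449, and 1 of 8 was called higher, where 3.06% of all genes were. Markers of the loop of Henle and distal tubule (7 of 8 in the table) were lower on high salt in SS rats, in the direction of Gbp2 and Gbp5. Their summed count spanned 209064 to 303021 on low salt and 91014 to 142969 on high salt, and 6 of 7 were called lower, where 7.73% of all genes were. In null rats it spanned 131976 to 261317 and 130950 to 149510, and 2 of 7 were called lower, where 2.45% of all genes were. None of these markers was at 0 in a library. With salt in SS rats, 1 of 10 endothelial markers was called higher and 1 lower, and 0 of 8 smooth muscle markers were called. Called higher were 2 of 7 dendritic cell, 1 of 6 B and plasma cell and 1 of 10 proximal tubule markers. Of collecting duct markers 1 of 7 was called lower, against the same shares of all genes. In null rats 1 dendritic cell and 2 proximal tubule markers were higher and 1 endothelial marker lower, beside 3.06% and 2.45% of all genes. In bulk samples fewer cells of a type and less RNA per cell cannot be told apart, and the part of cell makeup in the members' changes was not tested.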

How the data were processed

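Poly A RNA of kidney microvessels was sequenced from 20 rats. The values the authors deposited are normalized counts, a signal that equals reads over 1 factor per library. The submitters' processing notes name Trim Galore, STAR 2.7.11b, featureCounts 2.0.6, DESeq2 1.44 and the build mRatBN7.2, with no settings stated. Whole reads were recovered by taking a library's lowest nonzero value as 1 read, which made 100% of values whole within 1e-06 (22.04 to 47.85 M reads per library). No listed gene had fewer than 100 reads in all.

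The filter asked for a value of 10 or more in 5 or more libraries and kept 16153 of 16672 genes. The test was limma 3.58.1 in R 4.3.3 (lmFit, eBayes with trend) on log2(value + 1), with 1 fit of 4 group means and p-values adjusted by Benjamini and Hochberg over all tested genes, threshold 0.05. Errors are standard errors for log2 changes and SDs for levels. The p-values measure the spread between rats. Alternatives were other pseudocounts, filters and scalings, edgeR 4.0.16 and DESeq2 1.42.0 on the recovered reads, the compared groups alone, library weights, a replicate block, and leaving out rats. The limma code was tested on simulated data. The members, gene lists and rule for naming genes (all members, up to 3 of smallest p per pathway list and comparison, and nearest genes by within-group r) were chosen with earlier results of these data known. Names from the rule that a sentence did not need were left out. Promoters came from RefSeq's GRCr8 table and carry that build's coordinates, and no other coordinates are given.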

Additional observations from a re-analysis of the deposited data

Results flagged for a closer look

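Gbp5 in rat 3 of the null high-salt group was at 323 normalized counts, while the other 4 rats of the group lay at 438 to 467. Its distance to the nearest rat was 0.794 of the group's range, above Dixon's 95% critical value for 5 values. Among the 32 sets of 5 values examined this was the single one past that limit, and chance alone gives about 1 in 20.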

How the results depend on the processing

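Among log2 changes of members recomputed under alternatives other than leaving out 1 rat, 464 kept their direction and their side of the threshold, 13 came to pass it, 8 ceased to and 27 changed sign. Among counts of calls, 101 stayed within 1.5 times and 27 did not. The cause was not tested for any of these. Scaling to library totals gave 8929 genes for salt in SS rats (8767 higher and 162 lower, against 1538 and 1249), 918 higher and 113 lower in null rats (against 495 and 396), 4059 between genotypes on low salt (4053 higher, against 73 of 90), 592 on high salt, and 1082 for the difference of salt effects (29 higher and 1053 lower, against 125 and 284). It called 1, 1, 1, 0 and 1 members in the same order. Without mitochondrial genes in the total, the splits were 2148 higher and 722 lower in SS rats, 351 and 17 on low salt (368 in all), and 74 and 423 for the difference, with 1 member called in the last. DESeq2 called 1656 genes and 5 members in null rats, 555 genes on low salt, and 835 genes and 1 member for the difference. Fits of the compared groups alone called 1570 genes and 1 member (Gbp5) in SS rats, 2053 genes in null rats and 28 on low salt. Library weights gave 2628 in null rats and 487 on low salt, and quantile normalization 57 on low salt. Without the 2 libraries that lay apart, 851 genes and 0 members were called on high salt and 237 genes for the difference.

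Signs changed with total scaling in SS rats for Irf7 (0.17), Oasl (0.36), Ifit2 (0.046) and Mx1 (0.082), and in null rats for Irf1 (0.062). They did so on low salt for Gbp2 (0.21), Gbp5 (0.26) and Ifit3 (0.25), on high salt for Ifit3 (0.0011), and in the difference for Gbp5 (-0.16), Ifit2 (-0.078) and Ifit3 (-0.25). Without mitochondrial genes they did so for Oasl in SS rats (0.047), on low salt for Gbp2 (0.020), Gbp5 (0.064) and Ifit3 (0.058), and in the difference for Ifit3 (-0.059). With edgeR, Gbp5 on low salt was at 0.0005, and Ifit3 at 0.039 on low salt, 0.019 on high salt and -0.020 in the difference. With DESeq2 Ifit3 was at 0.036, 0.018 and -0.018. Pseudocount 8 gave 0.0003 for Ifit3 on high salt, and library weights gave -0.067 for Irf7 and -0.082 for Mx1 on low salt.

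Leaving out 1 rat at a time gave 2177 to 3197 genes and 2 to 3 members in SS rats, 419 to 1609 and 2 to 4 in null rats, 0 to 397 and 0 on low salt, 612 to 1798 and 0 to 1 on high salt, and 221 to 612 and 0 to 1 for the difference. Signs changed within -0.11 to 0.11 for Oasl in SS rats, on low salt within -0.084 to 0.035 for Gbp5, -0.17 to 0.13 for Ifit3 and -0.0083 to 0.27 for Mx1, on high salt within -0.087 to 0.12 for Ifit3, and in the difference within -0.13 to 0.0027 for Gbp2 and -0.13 to 0.17 for Ifit3. With the rat number as a replicate block, 5 members passed in null rats (Mx1 and Irf7 beside the other 3). The 30 pairs of libraries with the same number correlated at -0.16 to 0.14, and 2 libraries correlated best with their own number. The labels do not say whether rats of the same number shared a litter or a day, and such correlations cannot exclude it.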
